A study of Rattus norvegicus with 8 samples.

Results

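The genes described here are 31 genes that respond to interferon or process antigen for display on MHC class I. They were listed by symbol, with earlier results of these data known. Of the 31, 30 were measured among 14506 genes on the arrays, and Xaf1 is not analysed here. Each gene was read from a probe set that carries no other gene symbol, the brightest where a gene has several; each of the 30 has 1 probe set. The arrays hold hypothalamic RNA of female Sprague-Dawley rat pups at 21 d of age, on Affymetrix Rat Gene 1.0 arrays, 8 in all. In Con-s and Con-l the dams ate normally through pregnancy and lactation, and saline (Con-s) or leptin (Con-l) was given early in life. In CR-s and CR-l the dams' calories were cut by 50% from gestation day 11 to 21 and again after birth, with saline (CR-s) or leptin (CR-l). Treatment ran from postnatal day 2 to 8 in all 4 groups, so no group was left untreated. Each group has 2 arrays, replicates A and B. The labels do not settle whether dam or pup received the saline or leptin, and none says if an RNA sample pools several pups or litters. The p-values below thus reflect spread between the deposited samples, which may be technical. By its title the study asked about early leptin and hypothalamic neuropeptides of energy balance after restriction; the genes here lie outside that question.

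Type I interferons bind a receptor whose kinases activate a complex that holds Stat2 and Irf9 and binds the interferon-stimulated response element of target genes. Their products block viruses at membranes, in translation and through RNA degradation, and also supply the sensors and transcription factors that feed the response. Interferon also raises the immunoproteasome, the peptide transporter and beta-2-microglobulin, which together load peptide on MHC class I. In brain, microglia and cells of vessels and meninges are among those that respond to interferon.

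Of the 31 genes, 25 have a promoter in the RefSeq table of the rat build GRCr8, which holds 250 bases before and 50 after the start of a transcript. The core of the response element, GAAA, NN and GAAA in a row (N is any base), was searched on both strands. It was found in 18 of these 25 promoters (72.0%), against 3.92% of all 33469 promoters of that length and 3.41% of the 11970 that belong to measured genes. The gamma-activated site, TTCNNNGAA, an element of the response to interferon gamma, was found in 6 of 25 (24.0%), against 8.87% of all promoters and 7.59% of those of measured genes. In Ifitm3 such a match lies just downstream of the response element core, and in Bst2 it overlaps it. The genes were listed as interferon targets, so these shares describe the list and say nothing of these animals. A match is only a run of letters, and its use in the hypothalamus was not tested.

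The promoters of the 4 genes with the smallest p-values in the diet comparison below are printed up to the base before the transcript start, with response element cores and gamma-activated sites in capitals. Stat2 holds neither.
Ifitm3 promoter (GRCr8 chr1:205541759-205542008, minus strand): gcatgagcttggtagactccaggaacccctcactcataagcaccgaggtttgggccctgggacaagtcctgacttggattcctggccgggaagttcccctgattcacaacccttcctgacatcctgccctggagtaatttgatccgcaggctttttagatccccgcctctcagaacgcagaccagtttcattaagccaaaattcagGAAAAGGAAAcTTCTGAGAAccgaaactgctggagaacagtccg
B2m promoter (GRCr8 chr3:129549080-129549329, plus strand): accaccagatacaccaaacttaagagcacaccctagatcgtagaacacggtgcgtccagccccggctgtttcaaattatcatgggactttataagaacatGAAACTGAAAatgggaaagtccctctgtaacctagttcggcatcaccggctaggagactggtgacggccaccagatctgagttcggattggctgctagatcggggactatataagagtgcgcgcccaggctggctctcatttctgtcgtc
Stat2 promoter (GRCr8 chr7:1286840-1287089, plus strand): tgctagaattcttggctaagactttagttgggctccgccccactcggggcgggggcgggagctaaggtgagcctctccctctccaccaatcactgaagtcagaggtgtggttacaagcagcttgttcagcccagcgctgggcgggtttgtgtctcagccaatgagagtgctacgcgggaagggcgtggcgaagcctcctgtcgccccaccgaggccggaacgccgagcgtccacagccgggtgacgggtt
Rsad2 promoter (GRCr8 chr6:48788121-48788370, minus strand): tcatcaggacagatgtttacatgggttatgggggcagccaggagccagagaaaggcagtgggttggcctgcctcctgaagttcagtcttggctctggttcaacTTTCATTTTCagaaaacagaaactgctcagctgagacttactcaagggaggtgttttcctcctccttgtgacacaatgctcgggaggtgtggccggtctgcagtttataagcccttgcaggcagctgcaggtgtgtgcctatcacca

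To show how the core varies between genes of different roles, 6 further matches are printed with up to 10 bases on each side and the core in capitals, on the strand of the gene in GRCr8.
Ifitm2 (chr1:205482362-205482391, minus strand): ccaccaacagGAAAAGGAAActgctagaga
Isg20 (chr1:142239957-142239986, plus strand): taatgaaccaGAAACTGAAActaaaacggc
Eif2ak2 (chr6:21941128-21941157, plus strand): agtccgccggGAAAACGAAAcagagagaac
Oas1a (chr12:41330421-41330450, plus strand): tcgggaaatgGAAACTGAAAatcttgttcc
Psmb8 (chr20:4657016-4657045, minus strand): gtgctgtggcTTTCGCTTTCacttccttgt
Tap1 (chr20:4668645-4668674, minus strand): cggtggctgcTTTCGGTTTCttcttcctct

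The match begins 33 bases before the start in Ifitm2 and 44 bases before it in Ifitm3. The 10 letters of the core are the same in both genes. In Rsad2, Psmb8 and Tap1 the core lies in the reverse direction. It begins 150 bases before the start in B2m, 147 in Rsad2 and 121 in Tap1, and 4 bases before it in Psmb8.

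**Figure D1:**
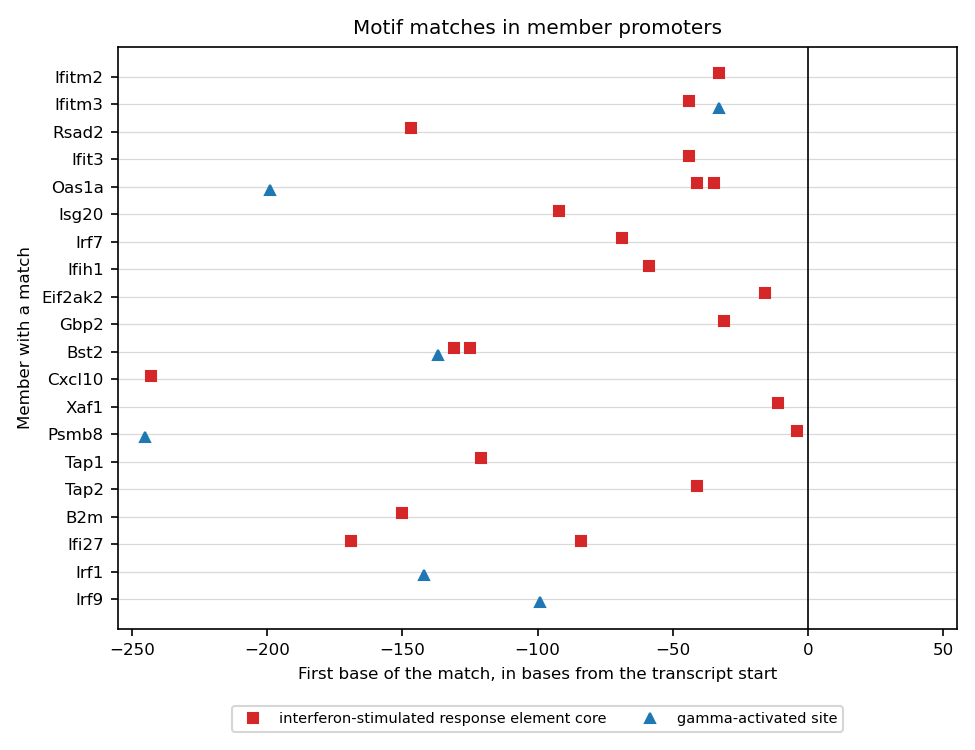
Positions of motif matches in the promoters of 20 of the listed genes, as distance of the first base from the transcript start (x axis, bases; 0 is the start); squares are cores of the interferon-stimulated response element and triangles gamma-activated sites. Most cores lie within 150 bases of the start, and Oas1a, Bst2 and Ifi27 have 2 each.

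All values below are log2 intensities per probe set, and a difference of 1 on this scale is a doubling. Probe sets bind with different strength, so amounts are compared between samples and not between genes. Setting a gene against a background measure or the median over all genes is only a rough guide to dim signal. Median intensities of the arrays ranged from 111.8 to 114.1. Interquartile ranges were 3.01 to 3.08 on 7 arrays and 2.92 on the CR-s array B. All 11 markers of the hypothalamus had means above the 95th percentile (5.84) of 1187 olfactory and vomeronasal receptor genes, which served as a measure of background. Of the 30 genes, 24 had means above it. Rsad2, Ifitm1, Ifit3, Mx1, Usp18 and Bst2 did not. This measure is no detection call.

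Restricted offspring had slightly lower signal than controls for most of these genes, by amounts that did not pass the test for any of them. Averaged over saline and leptin (4 arrays against 4), 25 of 30 were lower and 5 higher, with a median difference of -0.11; over all 14506 genes 49.7% were lower and the median was 0.00. The membrane protein Ifitm3 differed by -0.37 and the GTPase Mx2 by -0.35. The antiviral enzyme Rsad2 differed by -0.58, but its signal on all 4 CR arrays was below the background measure. The highest was that of Ifit2 (0.22). With limma 0 of 30 passed at an adjusted p under 0.05 over all genes, where 1.21% of all genes passed, and the smallest adjusted p was 0.0842. With limma's trend and robust settings 4 passed (Ifitm3, Rsad2, Stat2 and B2m), where 5.13% of all genes did, and among the upper 60 percent of genes by mean 3 of 8 passed (Ifitm3, Stat2 and B2m), where 7% did. At an unadjusted p under 0.05 there were 7 lower and 1 higher, where 9.04% of all genes were lower and 6.71% higher. Every CR array was below every Con array for 3 genes (Rsad2, Stat2 and B2m), as for 6.67% of all genes, and above it for 0, as for 4.52%. These counts carry no test, and the choice of genes with earlier results known may have shaped them.

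**Figure D2:**
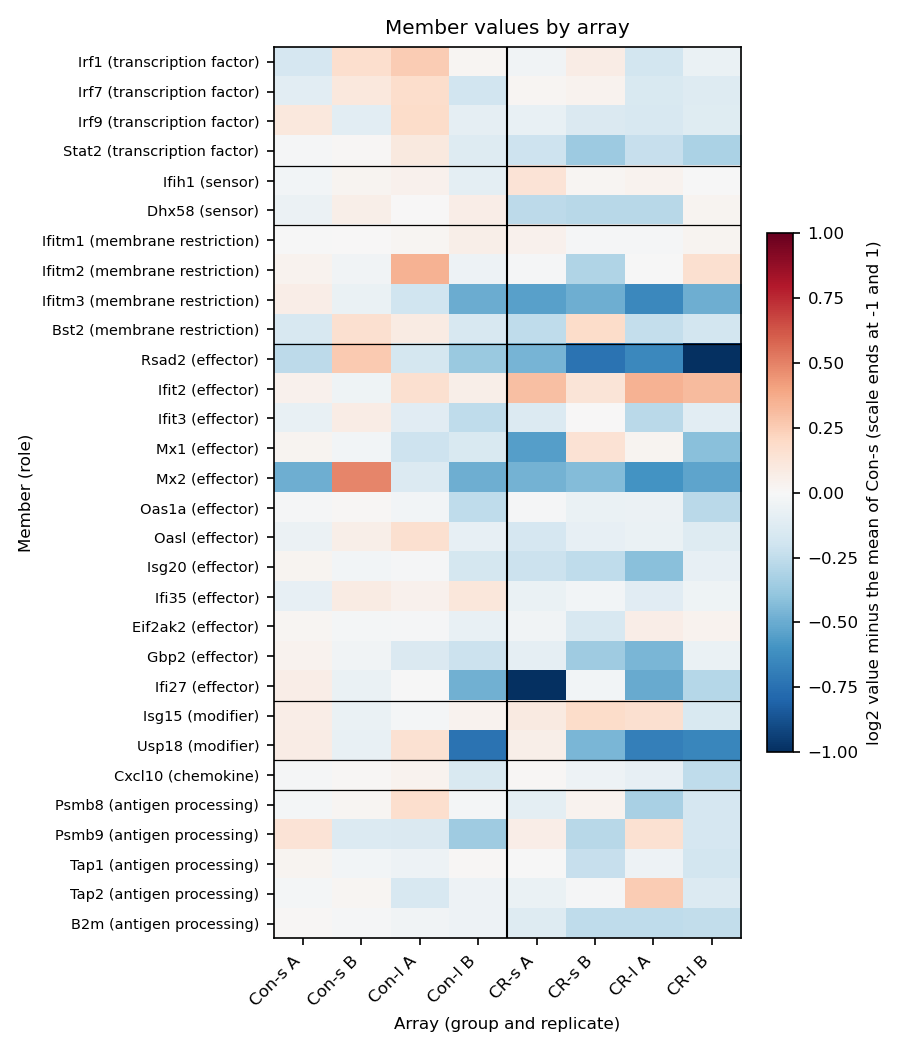
Log2 value of each of the 30 genes (rows, ordered by role) on each of the 8 arrays (columns), minus the mean of the Con-s arrays; blue is lower and red higher, and the colours end at -1 and 1. Rsad2, Ifitm3, Stat2 and B2m are below 0 on all 4 CR arrays, while Ifit2 is above it on them.

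The transcription factors and sensors come first. Stat2, a signal transducer of type I interferon, measured 7.69 and 7.72 (Con-s), 7.80 and 7.58 (Con-l), 7.50 and 7.34 (CR-s), and 7.47 and 7.39 (CR-l). Every CR array lay below every Con array. The averaged diet difference was -0.27 (SE 0.07, limma adjusted p = 0.111). Irf9, which gives that complex its DNA binding, had means of 7.31 (Con-s), 7.35 (Con-l), 7.20 (CR-s) and 7.17 (CR-l), and the groups overlapped (difference -0.15, SE 0.08). Irf7, the amplifier of interferon production, differed by -0.06 (SE 0.09). Irf1, an early factor downstream of interferon gamma, differed by -0.12 (SE 0.09). Of the RNA sensors, Dhx58 (LGP2) was at 6.02 and 6.14 (Con-s), 6.08 and 6.15 (Con-l), 5.82 and 5.81 (CR-s), and 5.81 and 6.11 (CR-l). Only CR-l replicate B lay among the Con arrays. The other CR arrays were below the background measure of 5.84 and the Con arrays above it, so the size of the difference is uncertain. The averaged difference of Dhx58 was -0.21 (SE 0.07, limma adjusted p = 0.222). Ifih1 (MDA5), the sensor of long double-stranded RNA, differed by 0.06 (SE 0.05).

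All 4 membrane restriction factors were lower in restricted offspring, by unequal amounts (median -0.11). Ifitm3, which blocks viral fusion in endosomes, measured 8.25 and 8.11 (Con-s), 7.98 and 7.69 (Con-l), 7.64 and 7.69 (CR-s), and 7.53 and 7.69 (CR-l). The Con-s arrays were the highest, and Con-l replicate B lay at the level of the CR arrays. The averaged diet difference was -0.37 (95% confidence interval -0.55 to -0.19, SE 0.08, limma adjusted p = 0.0842), a 1.29-fold lower signal. Of its neighbours on chromosome 1, Ifitm2 differed by -0.11 (interval -0.36 to 0.13) and Ifitm1 by -0.01 (interval -0.10 to 0.09). Ifitm1 spanned only 5.50 to 5.57 over the 8 arrays, a narrow range at a dim level. Bst2 (tetherin), which holds budding virus at the cell surface, differed by -0.11 (SE 0.12). The Ifitm genes are similar in sequence, as are Mx1 and Mx2 and the Oas1 genes, and whether their probe sets also bind relatives was not tested.

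**Figure D3:**
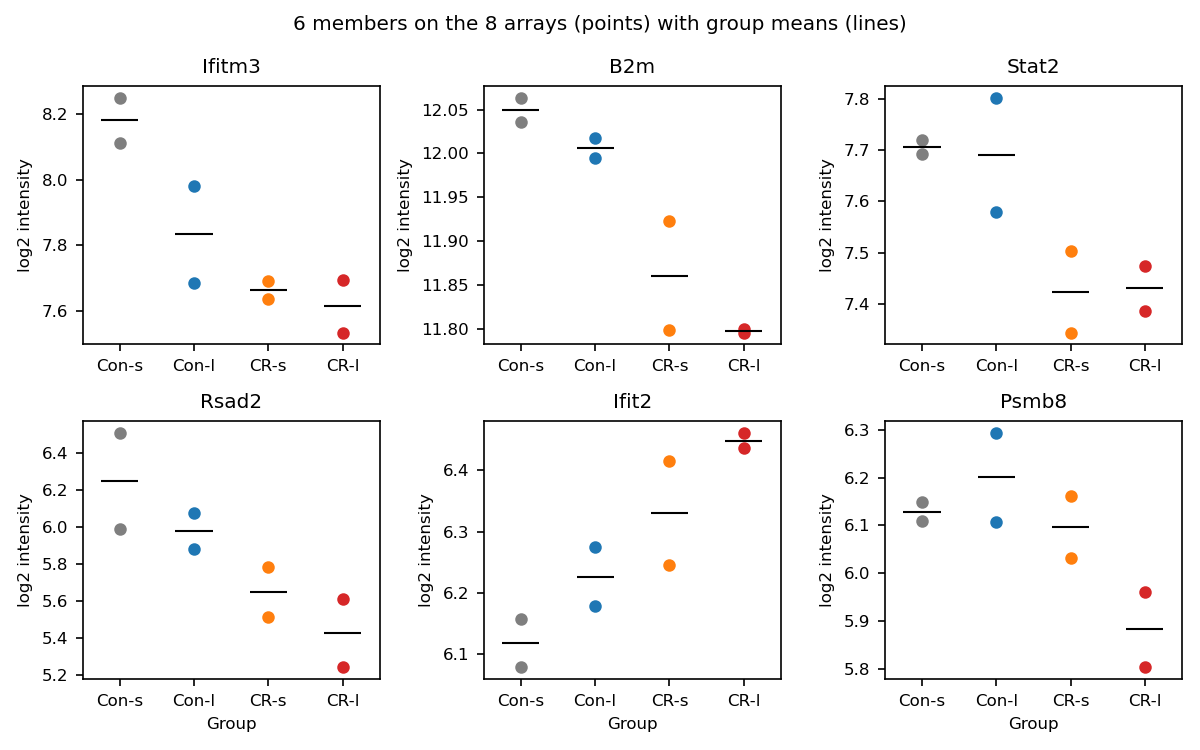
Log2 intensity of Ifitm3, B2m, Stat2, Rsad2, Ifit2 and Psmb8 on each array (points) with the group mean (line), by group; each panel has its own y axis, which does not start at 0. Rsad2, Stat2 and B2m are lower on every CR array than on any Con array, and Psmb8 is lowest on the CR-l arrays.

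Among the effectors 11 of 12 were lower in restricted offspring (median -0.12). Rsad2 (viperin), which makes a chain-terminating nucleotide, measured 5.99 and 6.51 (Con-s), 6.08 and 5.88 (Con-l), 5.79 and 5.51 (CR-s), and 5.61 and 5.24 (CR-l). All CR arrays were below all Con arrays. The CR arrays were also below the background measure of 5.84 and the Con arrays above it, so the size of the difference is uncertain. The averaged difference was -0.58 (interval -0.91 to -0.25, limma adjusted p = 0.111). Ifit2 and its neighbour Ifit3 encode proteins that bind viral RNA and work as a complex. Ifit2 measured 6.16 and 6.08 (Con-s), 6.27 and 6.18 (Con-l), 6.42 and 6.25 (CR-s), and 6.46 and 6.44 (CR-l). It was the effector with higher signal in restricted offspring (0.22, SE 0.05, limma adjusted p = 0.120), with CR-s replicate B among the Con arrays. Ifit3 differed by -0.04 (SE 0.07).

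Mx2, an interferon-induced GTPase, was at 6.72 and 7.69 (Con-s), 7.07 and 6.72 (Con-l), 6.73 and 6.78 (CR-s), and 6.61 and 6.68 (CR-l). The replicates of Con-s were 0.97 apart, and replicate B was the highest of all arrays. The averaged difference was -0.35 (SE 0.20, limma adjusted p = 0.446). Ifi27, a mitochondrial protein induced by interferon alpha, was at 8.30 and 8.17 (Con-s), 8.23 and 7.76 (Con-l), 7.21 and 8.20 (CR-s), and 7.73 and 7.95 (CR-l). The CR-s replicates were 0.99 apart, more than the averaged difference of -0.34 (SE 0.21). Isg20, an RNA exonuclease, differed by -0.20 (SE 0.08, limma adjusted p = 0.293). Gbp2, a guanylate-binding protein, differed by -0.15 (SE 0.10) and Oasl by -0.13 (SE 0.07). Ifi35 differed by -0.10 (SE 0.05) and Mx1 by -0.11 (SE 0.16). The enzyme Oas1a, which activates RNase L, stood at -0.03 (SE 0.07), and the kinase Eif2ak2 (PKR), which halts translation, at -0.00 (interval -0.11 to 0.11).

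The ubiquitin-like modifier Isg15 and its protease Usp18 had averaged diet differences of opposite sign, each with a 95% confidence interval that includes 0. The mean of Usp18 was below the background measure. Isg15 differed by 0.07 (SE 0.08). Usp18, which also damps signalling at the interferon receptor, was at 5.39 and 5.24 (Con-s), 5.47 and 4.58 (Con-l), 5.37 and 4.85 (CR-s), and 4.63 and 4.66 (CR-l). Con-l replicate B was as low as the CR-l arrays, and the averaged diet difference was -0.29 (SE 0.20, limma adjusted p = 0.537). The chemokine Cxcl10, which attracts T cells, differed by -0.07 (SE 0.06).

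In antigen processing, B2m, the light chain of MHC class I molecules, was lower on all CR arrays. It measured 12.063 and 12.036 (Con-s), 12.018 and 11.995 (Con-l), 11.923 and 11.799 (CR-s), and 11.796 and 11.800 (CR-l). The highest CR array was CR-s replicate A. The averaged diet difference of B2m was small, -0.20 (interval -0.30 to -0.09, SE 0.04, limma adjusted p = 0.0963), a 1.15-fold lower signal. The other genes of this role, 4 adjacent genes on chromosome 20, did not share a direction. The immunoproteasome subunit Psmb8 differed by -0.18 (SE 0.06, limma adjusted p = 0.251) and its partner Psmb9 by 0.07 (SE 0.11). The peptide transporter subunits Tap1 and Tap2 differed by -0.11 (SE 0.06) and 0.06 (SE 0.09). Psmb8 was at 6.11 and 6.15 (Con-s), 6.29 and 6.11 (Con-l), 6.03 and 6.16 (CR-s), and 5.80 and 5.96 (CR-l). The CR-l arrays were the lowest, CR-s replicate A lay just below the Con arrays and CR-s replicate B among them. CR-l replicate A was also below the background measure.

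Genes with and without the response element core had similar differences, and the split was not tested. Of 17 measured genes with the core 15 were lower in restricted offspring (median -0.11), as were 6 of 7 without it (median -0.12) and 4 of 6 whose promoter was not searched (median -0.11). Stat2 was among those without the core in this window.

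The diet effect under saline and that under leptin use different arrays and can be set side by side. Under saline (CR-s against Con-s, 2 arrays each) 24 of 30 genes were lower with a median of -0.11, and under leptin (CR-l against Con-l) 25 of 30 with a median of -0.14. Over all genes 51.7% and 49.5% were lower. Of the 30, 21 were lower in both (70%), 2 higher in both and 7 of opposite sign. Over all genes 30.9% were lower in both. With 24 and 25 of 30 lower, most of the 30 had to be lower in both. The count of 21 thus restates those counts and shows no agreement gene by gene. Ifit2 and Ifih1 were higher in both. Ifit2 had 0.21 under saline and 0.22 under leptin, Stat2 -0.28 and -0.26, B2m -0.19 and -0.21 and Rsad2 -0.60 and -0.55. For these 4 genes both differences were close to each other. They were picked from the genes of smallest p in the averaged diet comparison, which is the mean of these same 2 differences. A shared sign is thus partly built in and gives no separate support. Ifitm3, which had the smallest p there, had less similar values. Ifitm3 had -0.52 (SE 0.11, limma adjusted p = 0.321) and -0.22 (SE 0.11, limma adjusted p = 0.428), and Psmb8 -0.03 and -0.32 (SE 0.09 each, limma adjusted p = 0.199 under leptin). The 7 genes of opposite sign were Ifitm1, Isg15, Irf1, Irf7, Eif2ak2, Psmb9 and Tap2.

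With limma 0 of 30 genes passed under saline and 0 under leptin, where 0% and 0.0207% of all genes passed. At an unadjusted p under 0.05 under saline 5 were lower (Ifitm3, Rsad2, Stat2, B2m and Dhx58) and 1 higher (Ifit2), where 5.1% of all genes were lower and 3.4% higher. Under leptin 4 were lower (Psmb8, B2m, Stat2 and Rsad2) and 1 higher (Ifit2), where 7.27% and 6.92% were. Non-overlap of 2 arrays against 2 was common: 9 genes lower and 2 higher under saline (21.1% and 16.9% of all genes), and 10 lower and 2 higher under leptin (22.9% and 23.5%).

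**Figure D4:**
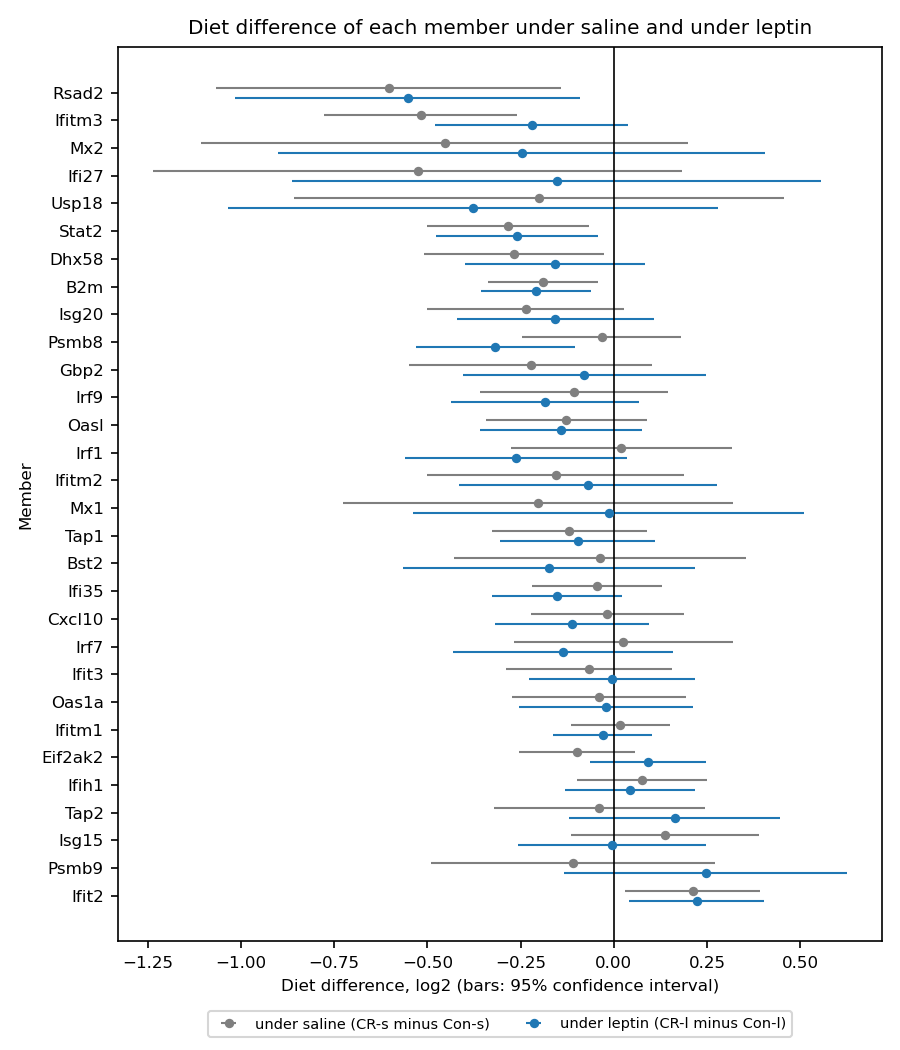
Diet difference (x axis, log2) of each of the 30 genes under saline (grey, CR-s minus Con-s) and under leptin (blue, CR-l minus Con-l), with 95% confidence intervals of the limma model, ordered by the averaged difference. Rsad2, Stat2 and B2m lie left of 0 with both intervals, and Ifit2 right of 0.

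No gene of the 30 passed in a leptin comparison. The leptin and diet comparisons share arrays, and their sizes were not tested against each other. Leptin against saline in controls gave 20 of 30 lower (50.3% of all genes), with a median of -0.04. Ifitm3 had the smallest p, at -0.35 (SE 0.11, limma adjusted p = 0.997), followed by Ifit3 (-0.18, SE 0.10) and Psmb9 (-0.25, SE 0.16), at the same adjusted p. With limma 0 genes passed and 1 of 30 (Ifitm3) had an unadjusted p under 0.05, where 4.19% of all genes had and 0% passed. Leptin against saline under restriction gave 19 of 30 lower (47% of all genes), with a median of -0.03. Psmb8 had -0.21 (SE 0.09), Eif2ak2 0.15 (SE 0.07) and Cxcl10 -0.15 (SE 0.09), with limma adjusted p of 0.808 for the first pair and 0.815 for Cxcl10. Here 0 passed, where 0% of all genes passed, and 1 (Psmb8) had an unadjusted p under 0.05, where 5.85% of all genes had.

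Within restricted offspring, the leptin difference of the 4 genes of lowest p among those lower under restriction was between -0.22 and 0.01. B2m had a leptin difference of -0.06 in restricted offspring (interval -0.21 to 0.09), Stat2 0.01 (interval -0.21 to 0.22), Rsad2 -0.22 (interval -0.69 to 0.24) and Ifitm3 -0.05 (interval -0.31 to 0.21). The intervals for Stat2, Rsad2 and Ifitm3 reach more than 0.2 above 0. Averaged over both diets, leptin gave a median of -0.05 with 22 of 30 lower, where 47.8% of all genes were; Ifitm3 had -0.20 (SE 0.08), Ifit3 -0.15 (SE 0.07) and Ifit2 0.11 (SE 0.05), each at a limma adjusted p of 0.913. By limma 0 passed there (0% of all genes) and 1, Ifitm3, had an unadjusted p under 0.05, where 4.87% of all genes had. The interaction tests whether the leptin effect differs between diets. It was below 0 for 13 of 30 genes (47.5% of all genes), with a median of 0.02. The smallest p were those of Psmb8 (-0.29, SE 0.13), Eif2ak2 (0.19, SE 0.09) and Ifitm3 (0.30, SE 0.16), each at a limma adjusted p of 0.898. With limma 0 of 30 passed (0% of all genes), and 0 had an unadjusted p under 0.05, where 5.15% of all genes had.

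The median gap between replicates was wider for these genes than over all genes in each group, without a test. Of the 30, 26 had mean signals at or below the median over all genes, and the gaps were not compared at like signal. The median gap between replicates A and B was 0.10 (Con-s), 0.19 (Con-l), 0.12 (CR-s) and 0.14 (CR-l), where over all genes it was 0.08, 0.09, 0.09 and 0.08. In Con-l 23 of 30 genes were higher on replicate A, where 56.3% of all genes were. The largest gap in Con-l was that of Usp18 (0.89). Without Con-l replicate A the median diet difference of the 30 genes under leptin was -0.04, and without Con-l replicate B it was -0.21. Averaged over both treatments it was -0.07 and -0.17, with 21 and 24 genes lower.

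Other genes of the pathway, from lists written from general knowledge, had medians near 0. Of 34 further interferon-stimulated genes 15 were lower and 19 higher in restricted offspring (median 0.02); the difference from the 30 genes was not tested. Trex1, a nuclease that clears cytosolic DNA, rose (0.28, SE 0.05, limma adjusted p = 0.0492) and was the member that passed. Its call ended without any single array, as most calls over all genes did. Its difference was then 0.25 to 0.31. The chemokine Cxcl9 had -0.40 (SE 0.08, limma adjusted p = 0.0830) and Herc6, a ligase that attaches Isg15 in mice, -0.33 (SE 0.07, limma adjusted p = 0.0844). Of 17 ligands, receptors and signalling genes 11 were lower (median -0.02, 0 passing by limma). At an unadjusted p under 0.05 there were 1 lower and 2 higher, where 9.04% of all genes were lower and 6.71% higher. The receptor chains Ifngr1 and Ifnar1 had 0.23 (SE 0.05) and 0.17 (SE 0.05), and the factor Irf3 -0.18 (SE 0.05). Of 13 nucleic acid sensing genes 7 were lower (median -0.02, 0 passing by limma, 1 higher at an unadjusted p under 0.05), with the adaptor Traf3 at 0.25 (SE 0.07).

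The lists of antigen presentation also had medians near 0. Of 27 listed class I heavy chain and related genes 22 were measured, and no RT1-A gene was among them. Of the 22, 14 were lower (median -0.03, 0 passing by limma and 0 at an unadjusted p under 0.05). Whether probe sets of the RT1 genes also bind relatives was not tested. The list thus does not show whether the heavy chains that pair with B2m moved with it. Of 11 genes of peptide loading and the proteasome activator 6 were lower (median -0.01, 0 passing by limma). At an unadjusted p under 0.05 there were 3 lower and 1 higher, where 9.04% of all genes were lower and 6.71% higher. The chaperone Calr had -0.24 (SE 0.04, limma adjusted p = 0.0578), and the activator subunit Psme1 0.26 (SE 0.06). The trimming peptidase Erap1 had -0.24 (SE 0.08). Of 13 constitutive proteasome subunits 5 were lower and 8 higher (median 0.02, 0 passing by limma, 1 higher at an unadjusted p under 0.05). In the class II list 8 of 13 were lower (median -0.01). Ctss, the protease that trims the invariant chain, rose (0.25, SE 0.04, limma adjusted p = 0.0383). That call ended without any single array, as most calls over all genes did, with a difference of 0.24 to 0.26. RT1-Da, a class II chain, had -0.49 (SE 0.09, limma adjusted p = 0.0681) and the invariant chain Cd74 -0.63 (SE 0.18, limma adjusted p = 0.155). In this list every CR array was below every Con array for 2 genes (RT1-Da and Cd74), as for 6.67% of all genes. For 1 gene every CR array was above, as for 4.52%. At an unadjusted p under 0.05 there were 2 lower and 2 higher, where 9.04% of all genes were lower and 6.71% higher.

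Markers of other cell types moved with diet beside these genes. In bulk tissue, fewer cells of a type and less RNA per cell cannot be told apart. In the averaged diet comparison 1.21% of all genes passed by limma. With all probe sets tested together 0% of probe sets passed, so the calls of single markers given here and below depend on the setting. Of 10 markers of the meninges 9 were lower in restricted offspring (median -0.33), and Ogn, Slc6a13 and Col1a2 fell (limma adjusted p = 0.0223, 0.0325 and 0.0416). The log2 of their summed intensity was 11.42 to 11.90 on Con and 11.01 to 11.18 on CR arrays. All 4 red cell markers fell, with sums of 11.1 to 11.8 on Con and 9.71 to 10.4 on CR arrays. Of 10 endothelial markers 7 were lower (median -0.07, 0 passing by limma). Their sums overlapped, at 11.29 to 11.38 on Con and 11.23 to 11.32 on CR arrays. At an unadjusted p under 0.05, 3 of them were lower, where 9.04% of all genes were. Of 6 mural cell markers 5 were lower, and Tagln and Rgs5 fell (limma adjusted p = 0.0223 each; sums 11.8 to 11.9 and 11.6 to 11.7).

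Microglial markers were split, 6 of 12 lower (median -0.02, 0 passing by limma), with sums of 12.2 to 12.3 on Con and 12.2 to 12.3 on CR arrays. At an unadjusted p under 0.05 there were 2 lower and 1 higher, where 9.04% of all genes were lower and 6.71% higher. Blood leukocyte markers had a median of 0.01, 0 of 10 passing by limma and 0 at an unadjusted p under 0.05, with sums of 9.21 to 9.30 and 9.23 to 9.35, and 4 of the 10 had means above the background measure. Of 6 astrocyte markers 5 were lower (sums 13.3 to 13.4 and 13.0 to 13.2), with Gfap falling (limma adjusted p = 0.0233). All 5 oligodendrocyte markers were lower, with sums of 14.74 to 14.84 and 14.55 to 14.67, Cnp falling (limma adjusted p = 0.0449). Choroid plexus markers had sums of 8.637 to 8.881 and 8.535 to 8.636. Of the 5, 4 were higher in restricted offspring (median 0.04), and Kcnj13 fell (limma adjusted p = 0.0223). Neuronal markers had sums of 14.21 to 14.28 and 14.26 to 14.30. No marker was listed at 0. The part of these cell types in the lower signal of the interferon genes was not tested.

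**Figure D5:**
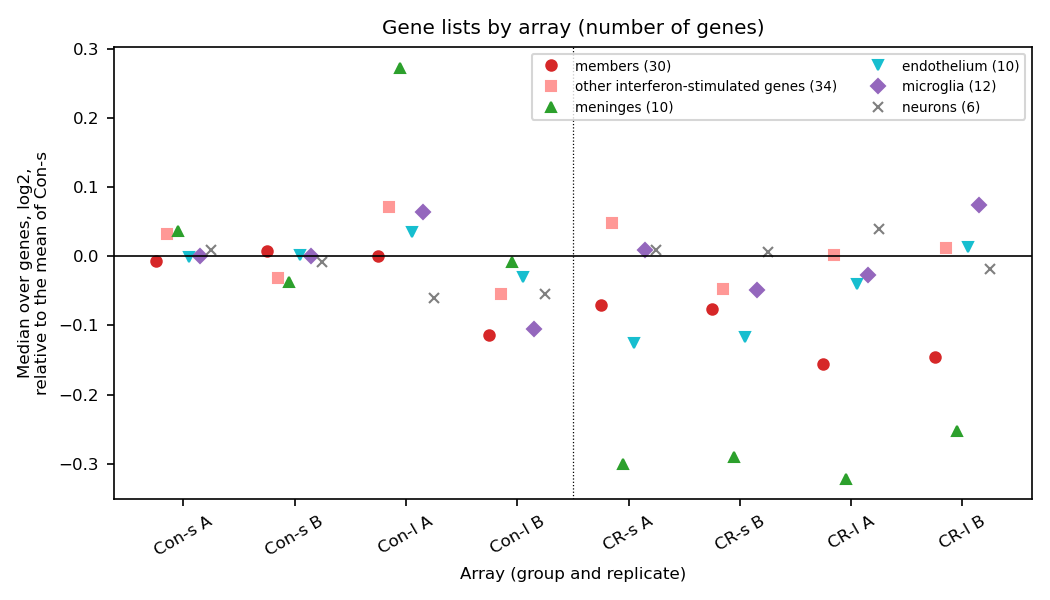
Median over the genes of a list (y axis, log2, relative to the mean of Con-s) on each array, for the 30 genes described here, 34 other interferon-stimulated genes and markers of meninges, endothelium, microglia and neurons. The 30 genes lie at -0.07 to -0.16 on the CR arrays and at -0.11 on Con-l replicate B, and the meningeal markers at -0.25 to -0.32 on the CR arrays.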

How the data were processed

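Hypothalamic RNA of 8 samples in 4 groups of 2 was measured on 1-colour arrays. The deposited table gives a linear intensity for each probe set; the authors made these values with RMA in Affymetrix Expression Console, per the submitters' processing notes, and versions and a genome build are not given in the sources used here. RMA makes arrays alike in distribution, so a shift shared by most genes would not be seen. The table was log2-transformed with no pseudocount and not normalized again. Of 29215 probe sets 15310 have 1 gene symbol in the platform annotation, updated through Entrez numbers (15279) or accessions (6); 25 kept the array's symbol. The brightest probe set by mean was kept for each of 14506 genes.

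A limma model (version 3.58.1, R 4.3.3; lmFit and eBayes) with 4 group means gave 7 comparisons, two-sided, with Benjamini-Hochberg adjustment over all genes, a threshold of 0.05, 4 residual and 3.21 prior degrees of freedom. It was checked on simulated data. Genes and lists were chosen with earlier results of these data known. Named were, in each comparison, genes that passed and the 3 of smallest p. Values on every array are given for the 3 of smallest averaged diet p, the 3 brightest and the 3 with the widest replicate gap, and for Rsad2, Ifit2, Psmb8 and Dhx58, which were chosen after their values were seen, as was the background measure. Of each further list up to 3 genes of smallest p were named, plus Cd74. Alternatives were cyclic loess, trend and robust moderation, the upper 60 percent of genes, mean probe sets, all probe sets, only the compared groups, the replicate letter as a block and leaving out each array. The letters were treated as names only: deviations of same-lettered arrays correlated at -0.06 to 0.11 between groups.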

Additional observations from a re-analysis of the deposited data

How the results depend on the processing

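In the averaged diet comparison no gene of the 30 passed, and 4 (Ifitm3, Rsad2, Stat2 and B2m, all lower) passed with trend and robust moderation, where 5.13% of all genes did. With the upper 60 percent of genes, which keeps 8 of the 30, 3 passed (Ifitm3, Stat2 and B2m), where 7% of all genes did. Under leptin 1 gene of the 30 (B2m) passed with trend and robust moderation, where 3.23% of all genes did. With the replicate block the count stayed 0 in every comparison, where 0.6% of all genes passed in the averaged diet comparison. The limma adjusted p there was 0.124 for Ifitm3, 0.121 for B2m and 0.101 for Stat2. The counts were 0 in all other settings, leaving out any array included. The count of lower genes in the averaged diet comparison was 21 to 26 when arrays were left out in turn and 25 after cyclic loess; the other settings that keep all 30 cannot change it. This count was added after seeing the data. Leaving out arrays in turn gave these ranges of the median over the 30 genes: -0.17 to -0.070 (diet averaged over saline and leptin), -0.13 to -0.07 (diet under saline), -0.21 to -0.043 (diet under leptin), -0.08 to -0.02 (leptin averaged over both diets), -0.11 to 0.00030 (leptin in control offspring), -0.07 to -0.03 (leptin in restricted offspring), -0.058 to 0.12 (interaction). The median of the interaction was 0.12 without Con-l replicate A, and below 0 without Con-l replicate B, CR-s replicate B or CR-l replicate A. Under leptin the extremes came without Con-l replicate A and B. Cyclic loess moved no median by more than the spread between replicates. Averaging probe sets cannot change these genes' differences, since each has 1. The number of arrays limits what could be detected, as does a mean signal at or below the background measure for 6 of the 30 genes. Several others lie just above that measure.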
